A study of Mus musculus with 2 samples.

Results

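The complement genes C1ra, C1s1, C4b, C3, Cfb, Cfd, Hc and Serping1 were followed in 2 mouse lung sections profiled with Visium, a spatial assay in which barcoded spots on a slide capture the RNA of the tissue above them. They were chosen by symbol, and all 8 were among the 32285 features of the count tables. The complement system is a cascade of plasma proteins that tags surfaces and recruits leukocytes. C1r and C1s are the proteases of the classical pathway's first complex, which cut C4. C3 is the central component on which all routes meet. Factor B (Cfb) and factor D (Cfd) build the alternative pathway's convertase, Hc encodes C5, which starts the terminal pore, and Serping1 encodes the C1 inhibitor that blocks C1r and C1s. The liver makes most plasma complement, while epithelium, fibroblasts and mesothelium of many organs, the lung included, also transcribe parts of the cascade.

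The metastatic lung came from a female Balb/c mouse. When it was 6 to 8 weeks old, 1000000 cells of the mouse mammary carcinoma line 4T1 were placed into its mammary fat pad. The lung was taken 21 to 23 days later. The control lung came from a mouse without tumour cells, labelled as having had no treatment, whose age is not given. Each condition is 1 fresh-frozen section, so the section, the animal, the library and the condition cannot be told apart. The control section held 1888 spots with a median of 9643.5 counts and the metastatic section 1110 spots with a median of 11334.5 counts. The 2 sections shared 858 spot barcodes, which belong to positions on the slide and not to cells. A few spots lay apart from the tissue, 10 in the control section and 9 in the far lung defined below, and without them the counts of members past 2-fold in the metastases, at the margin and in the far lung against the control stayed at 4, 2 and 1.

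Levels are given as CP10k, the counts of a gene summed over a set of spots per 10000 summed counts of all genes there, with exact 95% Poisson intervals in brackets. Beside a ratio of 2 levels stands its 95% interval by the Clopper-Pearson method, from how the gene's counts divide between the sides. Both cover counting error only. They contain no spread between animals, no test over spots was made, and a spot holds several cells, so fewer cells of a type and less RNA per cell cannot be told apart.

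At the level of the whole section, C3 and Serping1 had the most counts. C3 stood at 4.41 CP10k (4.32 to 4.50) in the control and 7.87 CP10k (7.73 to 8.02) in the metastatic section. Serping1 stood at 4.31 CP10k (4.22 to 4.40) and 3.36 CP10k (3.27 to 3.46). The classical pathway members differed less between the sections than C3 did. C4b was at 1.61 CP10k (1.56 to 1.67) and 1.41 CP10k (1.35 to 1.47), C1s1 at 0.827 and 1.03 CP10k, and C1ra at 0.604 and 0.757 CP10k in the control and the metastatic section. Hc was at 0.941 CP10k (0.899 to 0.984) in the control and 0.728 CP10k (0.685 to 0.773) in the metastatic section. The alternative pathway proteases differed most between the sections. Cfb was at 0.202 CP10k (0.183 to 0.222) in the control and 0.929 CP10k (0.880 to 0.979) in the metastatic section, and Cfd at 1.52 CP10k (1.47 to 1.58) and 0.0696 CP10k (0.0567 to 0.0845). How evenly a gene was spread also varied: the 50 spots with most Cfd counts held 71.2% of them in the control section, against 24.0% for C3, 15.2% for Hc and 13.3% for Serping1.

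To see which lung compartment each gene follows, 4 classes of spots were formed from marker lists that hold no complement gene. They are AT2 (alveolar type 2 epithelium, the surfactant-making cells), airway (club and ciliated epithelium), adventitial fibroblast (the collagen-rich sheath of vessels and airways) and mesothelium (the pleural surface layer). Each class is the 5% of spots with the highest marker score, 94 spots in the control lung, and it was formed again in the 695 spots of the metastatic section that lay over 500 µm from a metastasis, the far lung, with 35 spots a class. Of the marker genes in the lists, 9 of 11 AT2, 8 of 10 airway, 10 of 10 fibroblast and 8 of 8 mesothelium genes were at least 2-fold higher in their control class than in the other spots, and none was at 0 in its class. Airway spots are dominated by secretoglobin transcripts (Scgb1a1 alone made up 15.2% and 18.4% of all counts in the control and the metastatic section), and the median gene was at a log2 ratio of -1.05 there, so ratios in airway spots read low.

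In the control lung, complement transcripts gathered in fibroblast and mesothelium spots rather than in epithelium. Of the 8 genes, 7 were at least 2-fold higher in adventitial fibroblast spots than in the other spots (Hc was not), against 7.76% of the genes with at least 50 counts. In mesothelium spots 6 were at least 2-fold higher, against 2.59% of genes. In AT2 spots this held for Hc alone (3.06% of genes) and in airway spots for Cfd alone (5.66% of genes). The median log2 ratio of the members was 1.99 in fibroblast spots and 1.5 in mesothelium spots, beside -0.02 and 0.14 for all genes. In AT2 and airway spots it was 0.26 and -0.92, beside 0.28 and -1.05 for all genes. The pattern was not limited to these 2 classes. In 94 control spots richest in a macrophage list C4b was at 5.15, C3 at 12.1 and Serping1 at 9.32 CP10k. The whole control section was at 1.61, 4.41 and 4.31 CP10k. Hc was at 1.01 CP10k in the macrophage spots and 0.941 CP10k in the section. The plot of class ratios sets the 8 genes side by side.

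**Figure D1:**
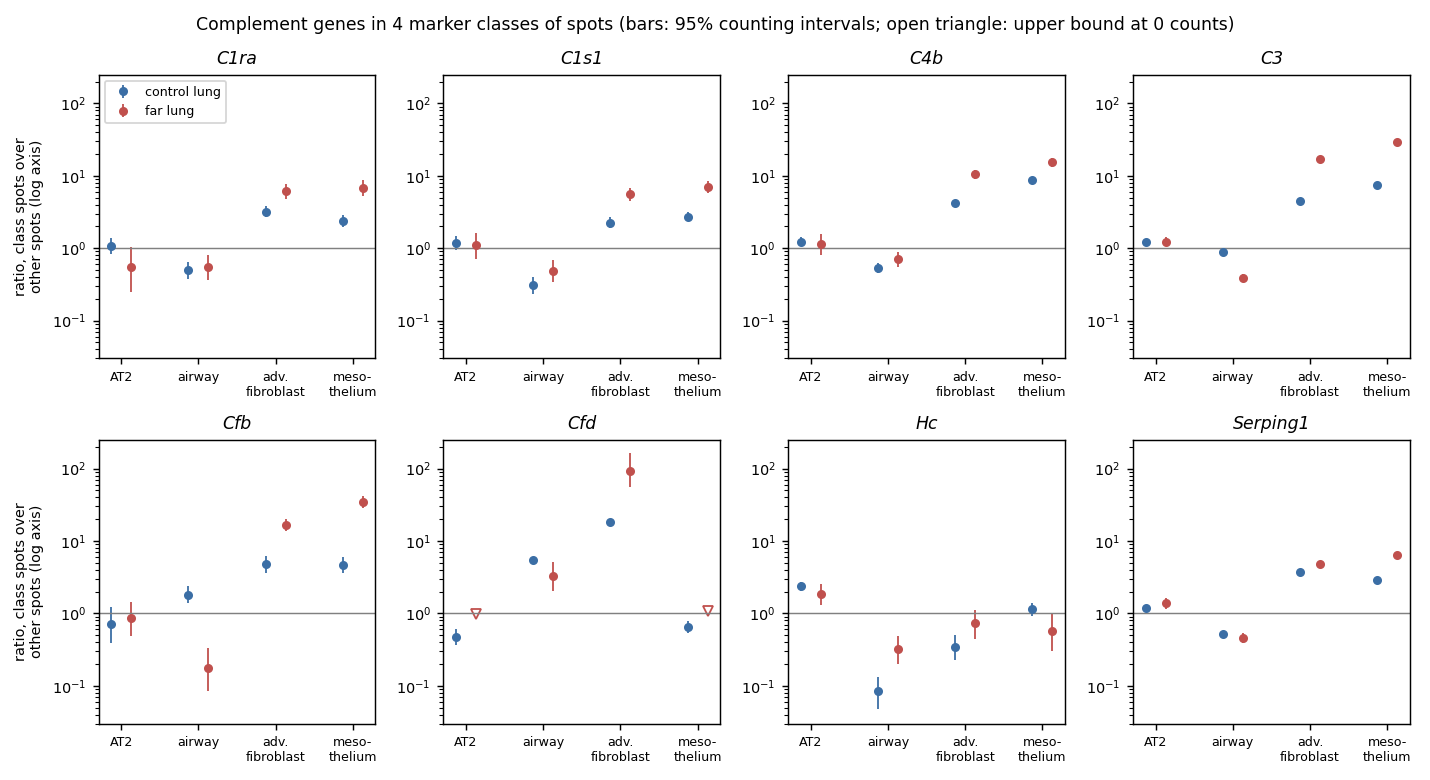
Ratio of the CP10k level in the class spots to that in the other spots (log axis) for 8 complement genes, in the control lung (blue, 94 spots a class) and in the far lung of the metastatic section (red, 35 spots a class). Bars are 95% counting intervals and open triangles the upper bound where no count fell in the class. C4b, C3 and Cfb peak in fibroblast and mesothelium spots, Cfd in fibroblast spots, and Hc stands above 1 in AT2 spots and below 1 in airway spots.

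C1ra and C1s1, the classical pathway proteases, lie next to each other on chromosome 6 of GRCm38 (C1ra at 124512405 to 124523443, plus strand, and C1s1 at 124530345 to 124542359, minus strand). In the control lung C1ra was at 1.78 CP10k (1.5 to 2.11) in fibroblast spots and 0.557 CP10k in the others, a ratio of 3.20 (2.66 to 3.82). Its ratio in mesothelium spots was 2.39 (1.98 to 2.86) and in AT2 spots 1.08 (0.825 to 1.40). C1s1 was also higher in both layers, but with mesothelium ahead of fibroblast spots, at 2.26 (1.88 to 2.69) in fibroblast, 2.71 (2.33 to 3.14) in mesothelium and 1.19 (0.955 to 1.47) in AT2 spots. In airway spots C1ra and C1s1 were at 0.496 and 0.309 of the level elsewhere, which are percentiles 52.4 and 25.2 of all genes there. Each has a near-identical neighbour, C1rb and C1s2, between which the counting may have split reads. These had few counts, 148 and 22 in the control section beside 1227 of C1ra and 1682 of C1s1.

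C4b (chromosome 17, 34728380 to 34743882, minus strand), the target of C1s, was the member most marked by mesothelium. It stood at 10.1 CP10k (9.49 to 10.7) in the control mesothelium spots against 1.17 CP10k elsewhere, a ratio of 8.60 (7.98 to 9.27). In fibroblast spots the ratio was 4.16 (3.76 to 4.59) and in AT2 spots 1.23 (1.06 to 1.43). The mesothelium spots, 5% of the section, held 30.8% of the C4b counts. Its near-copy C4a had 25 counts in the control section, and how reads shared by the pair were assigned is uncertain.

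C3 (chromosome 17, 57203970 to 57228136, minus strand) followed the same surfaces at a higher level. It reached 24.7 CP10k (23.7 to 25.7) in the control mesothelium spots, where single spots ran from 0 to 107 CP10k with a median of 21.5. The ratio to the other spots was 7.36 (7.03 to 7.71). In fibroblast spots C3 stood at 17.2 CP10k (16.3 to 18.2), a ratio of 4.42 (4.16 to 4.68). The AT2 spots were near the rest of the lung, at 1.21 (1.10 to 1.32). Airway spots, where ratios read low, were at 0.896 (0.831 to 0.964), which is percentile 83.3 of all genes there. Few spots were shared between the fibroblast and mesothelium classes (4 of 94), and among spots of 1 class only C3 stood at 23.6 CP10k in mesothelium and 15.9 CP10k in fibroblast spots, against 2.79 CP10k in spots of none of the 4 classes.

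Cfb (chromosome 17, 34856374 to 34862518, minus strand), which is cut by factor D once bound to C3b, was scarce in the control lung. It stood at 0.839 CP10k (0.648 to 1.07) in fibroblast and 0.8 CP10k (0.635 to 0.996) in mesothelium spots, against 0.176 and 0.171 CP10k in the spots outside each class. These are ratios of 4.76 (3.59 to 6.22) and 4.69 (3.62 to 6.00). It was also higher in control airway spots, with a ratio of 1.82 (1.38 to 2.37), while in AT2 spots the ratio was 0.719 (0.390 to 1.22).

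Cfd (chromosome 10, 79890853 to 79892655, plus strand) encodes factor D, also called adipsin after the fat cells that make it. Its ratio was 18.4 (17.1 to 19.8) in control fibroblast spots and 5.49 (5.10 to 5.90) in airway spots. Mesothelium spots were at 0.653 (0.530 to 0.796). A class made in the same way from 7 adipocyte markers held far more of it. In those 94 spots Cfd stood at 28.9 CP10k against 0.333 CP10k elsewhere, a ratio of 86.9 (79.6 to 94.9), and they held 79.1% of its counts. Without the adipocyte spots the ratios in the fibroblast and airway spots were 5.09 and 2.30, and the AT2 ratio turned from 0.478 to 1.80. In the metastatic section Cfd had 102 counts, 59 of them in 1 spot. There 90.2% of the far-lung counts lay in adipocyte spots, although 2 of the 7 adipocyte markers had no count in that lung.

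Hc (chromosome 2, 34983331 to 35061438, minus strand) kept apart from the other members. In control AT2 spots it stood at 2.09 CP10k (1.81 to 2.40) against 0.885 CP10k elsewhere, a ratio of 2.36 (2.03 to 2.74). The lowest spot of the class held no Hc count, the median spot was at 1.90 CP10k and the highest at 8.24 CP10k. In airway spots Hc was nearly missing, at 0.0862 CP10k (0.0502 to 0.138) or a ratio of 0.0835 (0.0485 to 0.134), and in fibroblast spots the ratio was 0.348 (0.227 to 0.511). Mesothelium spots did not differ from the rest beyond counting error, with a ratio of 1.13 (0.924 to 1.38). Spots rich in other alveolar cells also held more Hc, with ratios of 1.86 for alveolar fibroblast, 1.66 for endothelium and 1.42 for AT1 (flat alveolar epithelium) classes, so at the size of a spot the gene marks the alveolar tissue as a whole as well as AT2.

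Serping1 (chromosome 2, 84765387 to 84775444, minus strand), the inhibitor of both classical proteases, was the most evenly spread member. It was nonetheless highest in fibroblast spots, at 14.7 CP10k (13.9 to 15.6), a ratio of 3.78 (3.55 to 4.03). Mesothelium spots followed at 11.5 CP10k (10.9 to 12.2), a ratio of 2.93 (2.75 to 3.11). AT2 spots were at 1.2 (1.10 to 1.32) and airway spots at 0.519 (0.472 to 0.570), the latter at percentile 55.2 of all genes there.

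The genes whose pattern over 1861 control spots with at least 1000 counts was most like that of each member followed the same lines. Likeness was Pearson's r of log1p CP10k among 6067 genes with at least 500 counts, which is a description over spots that share 1 library and differ in depth. For C4b the 3 most alike were Upk3b (r = 0.52), Msln (0.51) and Aebp1 (0.51), the first a uroplakin and the second mesothelin, both in the mesothelium list. For C3 they were Igfbp5 (0.56), Aebp1 (0.53) and Dcn (0.52), and for Cfb Aebp1 (0.33), Igfbp5 (0.30) and Dcn (0.30), where Dcn encodes the matrix proteoglycan decorin. C1ra was most like Dcn (0.26), Fbln1 (0.24) and Gsn (0.24), and C1s1 like Cst3 (0.30), Rarres2 (0.27) and Apoe (0.26). Cfd went with Car3 (0.78), Fabp4 (0.72) and Thrsp (0.64), which are abundant in fat. Hc went with Slc34a2 (0.39) and Sftpb (0.36), the phosphate carrier and a surfactant protein of AT2 cells, and with Neat1 (0.36). Serping1 went with Gsn (0.49), Cst3 (0.48) and Apoe (0.46). Dcn, Upk3b, Msln, Car3, Slc34a2, Sftpb and Apoe are themselves in the marker lists, Apoe in that of macrophages. Among the members, C3 and C4b were the most alike pair in the control lung (r = 0.65), and Hc had no r above 0.04 with any other.

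The start of C3 and that of Hc are shown because, among the members in the promoter table, C3 had the highest mesothelium ratio and Hc the highest AT2 ratio in the control lung. Each run is the 250 bases before the RefSeq start, from the GRCm38.p6 table, 5′ to 3′ on the gene's own strand, C3 from chr17:57228137-57228386 and Hc from chr2:35061413-35061662, both on the minus strand. Capitals mark a match to TTGCNNAA, a core of C/EBP binding sites (C/EBP factors drive acute phase genes).
C3: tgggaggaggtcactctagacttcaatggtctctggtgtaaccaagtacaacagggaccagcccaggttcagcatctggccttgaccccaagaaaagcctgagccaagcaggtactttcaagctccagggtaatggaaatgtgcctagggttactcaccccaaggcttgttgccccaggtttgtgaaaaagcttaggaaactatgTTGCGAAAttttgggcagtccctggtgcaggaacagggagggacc
Hc: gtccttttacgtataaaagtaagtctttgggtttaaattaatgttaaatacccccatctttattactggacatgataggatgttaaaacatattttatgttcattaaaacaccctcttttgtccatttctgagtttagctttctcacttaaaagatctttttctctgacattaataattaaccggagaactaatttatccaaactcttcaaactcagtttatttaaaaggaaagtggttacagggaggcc

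The C3 match begins 45 bases before the start, and the Hc run holds none. Of the 5 members in the table (C1ra, C1s1, C3, Cfd and Hc), C3 and C1s1 had such a match on either strand, as did 9.56% of the 32851 promoters in the table. The interferon-gamma element TTCNNNGAA (7.02% of promoters), the interferon element core GAAANNGAA (7.13%) and the NF-kB letters GGGANNTCC (3.59%) were in none of the 5 windows. The runs also differ in base composition, with 52.0% G and C for C3 and 31.2% for Hc. A match describes these letters in this window and is not a site shown to be bound. Cfb, C4b and Serping1 were not matched.

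In the far lung of the metastatic section the counts per class were close to those of the control, with exceptions among the members. Here 7 members were at least 2-fold higher in fibroblast spots (6.4% of genes) and 6 in mesothelium spots (10.6% of genes), with Cfd for airway (2.88%) and no member for AT2 (6.49%), where Hc was at 1.88 (1.33 to 2.59). Of the 35 fibroblast spots 16 were also mesothelium spots. In the 12 spots of the fibroblast class only, Cfb was at 0.147 CP10k, below the 0.319 CP10k of the spots outside the class. C1ra, C1s1, C4b, C3, Cfd and Serping1 stayed higher than outside the class, with Serping1 at 6.68 against 3.13 CP10k. In airway spots Cfb was at 0.178 (0.0847 to 0.330), below the other spots, where the control had 1.82. The map of C3 shows a line of high spots on the outline of the metastatic section.

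**Figure D2:**
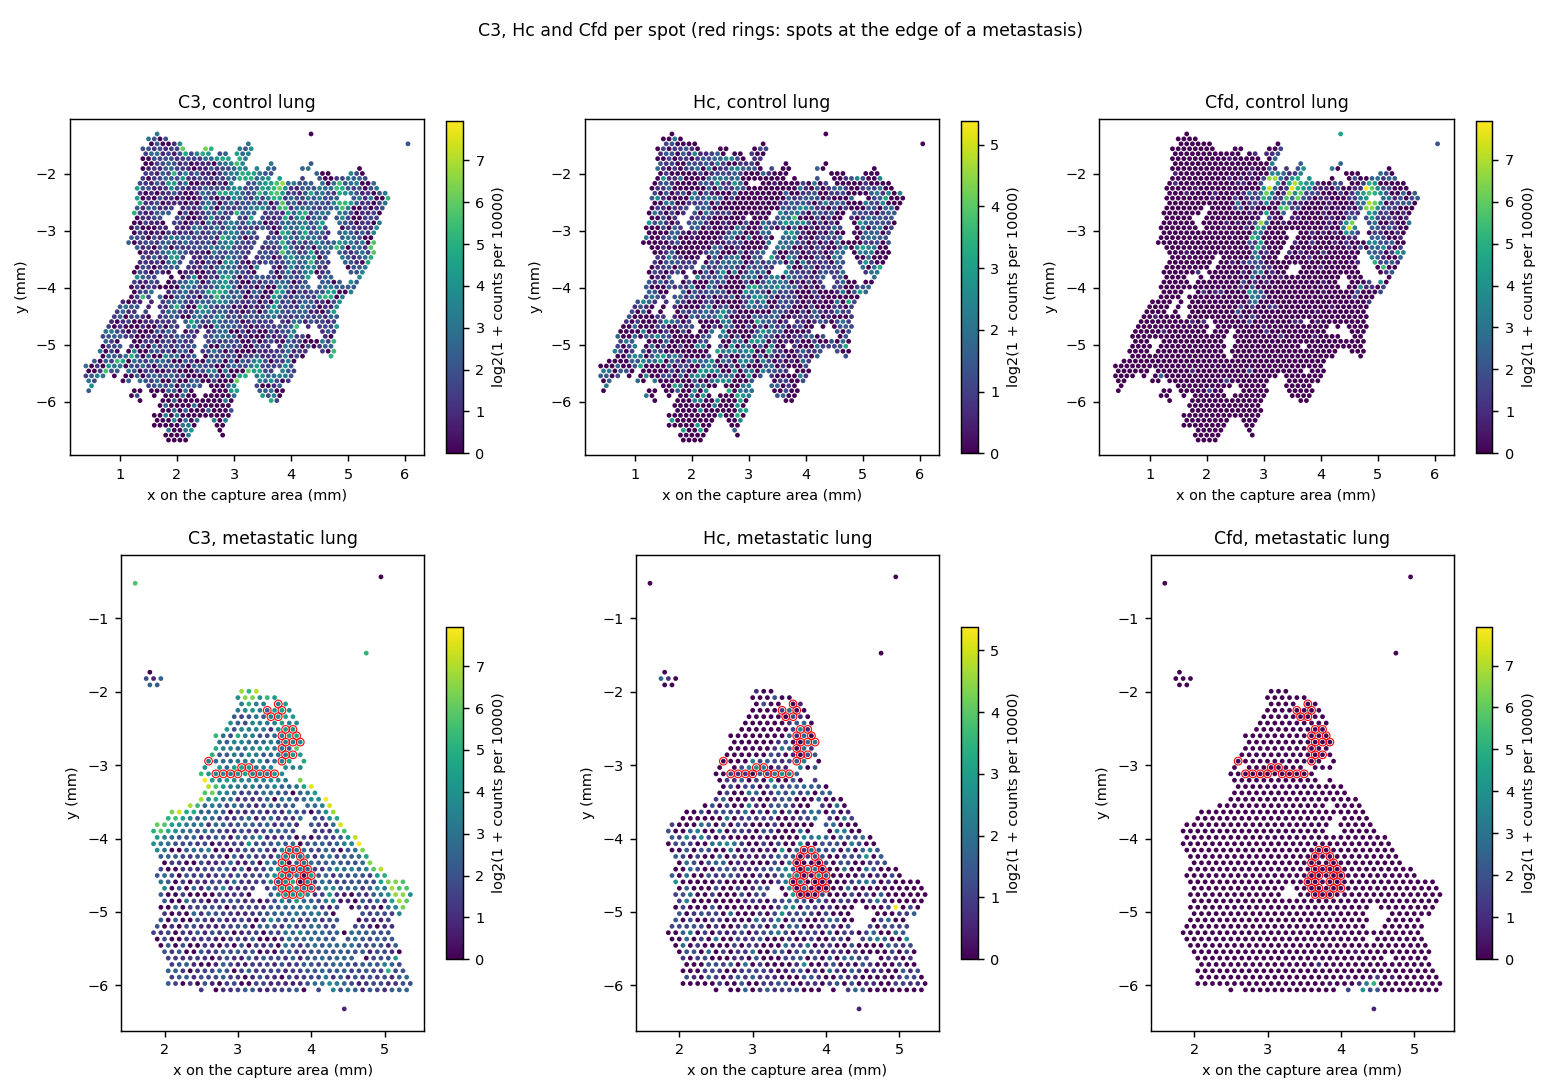
Level of C3, Hc and Cfd per spot as log2(1 + CP10k), in the control section (top) and the metastatic section (bottom), each gene on 1 colour scale for both sections. Axes are positions on the capture area in mm, and red rings mark metastasis spots that touch lung spots. C3 is highest along the slanting upper outline of the metastatic section (up to 245 CP10k in a spot), Hc is scattered through alveolar tissue, and Cfd forms a few patches in the control section and 1 small patch at the lower border of the metastatic section.

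What differed between the sections was the height of C3 and Cfb within mesothelium spots. C3 stood at 86.2 CP10k (82.8 to 89.6) in the 35 far-lung mesothelium spots and at 24.7 CP10k in the 94 of the control lung, a ratio of 3.49 (3.30 to 3.69). Its median spot was at 66.5 CP10k and its highest at 245 CP10k, against 21.5 and 107 CP10k in the control. The ranges of single spots overlapped, since both classes held spots without C3. For Cfb the far-lung level was 8.84 CP10k (7.79 to 9.99) against 0.8 CP10k, a ratio of 11 (8.56 to 14.4).

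The classical pathway genes differed less in the same spots. C1ra was higher at a ratio of 2.19 (1.65 to 2.89), C1s1 at 2.14 (1.71 to 2.68) and Serping1 at 1.73 (1.56 to 1.91). C4b had a ratio of 1.11 (0.976 to 1.26), and the summed mesothelium list itself one of 0.873 (0.785 to 0.969). Hc was lower, at 0.389 (0.195 to 0.709), and Cfd had no count among the far-lung mesothelium spots. Thus 4 of the 8 genes were at least 2-fold higher than in the control class, against 3.2% of the 4594 genes with at least 50 counts there.

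These spots were mixed in other ways. In the far lung 16 of the 35 mesothelium spots were also fibroblast spots, and in the 17 spots of the mesothelium class only C3 stood at 40.5 CP10k (36.8 to 44.4) and Cfb at 4.55 CP10k (3.37 to 5.99), still above the control's 23.6 and 0.811 CP10k. The interferon response list summed to 21.0 CP10k in the far-lung mesothelium spots and 5.57 CP10k in those of the control, and the neutrophil list to 21.9 and 1.91 CP10k. Their part in the result was not tested. Of the far-lung mesothelium spots 68.6% lay on the outline of the tissue (fewer than 6 neighbouring spots), against 47.9% in the control, and outline spots outside the class were low in C3 in both, at 4.31 CP10k (3.92 to 4.72) and 3.64 CP10k (3.46 to 3.82).

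Fibroblast spots differed in the same direction for C3 and Cfb. C3 was at 56.5 CP10k (54.2 to 58.9) in the far lung and 17.2 CP10k in the control, a ratio of 3.28 (3.06 to 3.52), and Cfb was at a ratio of 6.35 (4.78 to 8.52). This rested on the spots shared with mesothelium: in the 12 far-lung spots of the fibroblast class only, C3 was at 9.69 CP10k (8.11 to 11.5) and Cfb at 0.147 CP10k (0.0178 to 0.530), both under the 15.9 and 0.886 CP10k of the control. The fibroblast list was itself lower in the far-lung class, at 30.9 against 74.3 CP10k, a ratio of 0.416 (0.391 to 0.443). In AT2 spots C3 had a ratio of 1.32 (1.12 to 1.55) and Hc one of 0.610 (0.423 to 0.860), while the AT2 list itself was at 0.707 (0.695 to 0.720). In airway spots C3 was lower, at 0.596 (0.511 to 0.692), and Hc higher, at 2.83 (1.45 to 5.64). The 2 airway classes were unlike in make-up, with 31368 counts of the airway marker Scgb3a1 in the control class and 260 in that of the far lung.

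The far lung as a whole was then set against the control lung. Cfb was the only member at least 2-fold higher (0.926% of genes), with 0.543 CP10k (0.495 to 0.594) against 0.202 CP10k, a ratio of 2.69 (2.35 to 3.08). Cfd was the only one at least 2-fold lower (4.06% of genes), with 0.117 CP10k (0.0956 to 0.142) against 1.52 CP10k, a ratio of 0.0771 (0.0626 to 0.0939). C3 had a ratio of 1.3 (1.26 to 1.35), C4b one of 0.673 (0.625 to 0.723), Hc one of 0.744 (0.678 to 0.816) and Serping1 one of 0.851 (0.817 to 0.886). The median log2 ratio was -0.23 for the members and -0.17 for all genes. Without the 10% of spots richest in mesothelium in each section the Cfb ratio was 1.51 and the C3 ratio 0.93. For Cfd, the adipocyte list summed to 17.9 CP10k in the control adipocyte spots and 2.31 CP10k in those of the far lung, so the sections differed in fat as well. They also differed in muscle. In the spots richest in each list, cardiac muscle genes summed to 352 CP10k in the control and 2.39 CP10k in the far lung. Smooth muscle genes summed to 63.1 and 16.2 CP10k. The control cardiac muscle spots held Cfd at 6.60, C3 at 6.73 and Serping1 at 5.92 CP10k.

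Metastases were taken as the cluster of spots highest in a list of 4T1 and cell division genes, among 5 clusters made without any complement gene. It held 151 spots in 2 groups of touching spots, metastasis 1 with 123 spots at the upper end of the section and metastasis 2 with 28 spots inside the lung, and 3 separate spots were left out. Mki67, Top2a, Birc5, Cdk1 and Hmga2 were high there (Mki67 at 1.10 CP10k against 0.0828 CP10k in the far lung, Hmga2 with 40 of its 51 counts). Krt14 and Prl2c2 had no count in the section, and Fgfbp1 was lower in the cluster than in the far lung. The cluster was also the lowest in the AT2, AT1 and endothelium scores. Spots within 200 µm of a metastasis are called the margin (95 spots), and the far lung lay over 500 µm away (695 spots). The marker levels above pool both metastases, and metastasis 2 held 174838 of their 2457043 counts. The extent depends on the definition: 8 clusters gave 70 metastasis, 42 margin and 942 far-lung spots. A threshold on the score of the list (Otsu's method) gave 131, 132 and 619.

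Inside the metastases 4 members were at least 2-fold higher than in the far lung (22.3% of genes) and 1 was at least 2-fold lower (16.8% of genes). Both initiating proteases were higher. C1ra was at 1.68 CP10k (1.52 to 1.85) against 0.519, a ratio of 3.23 (2.82 to 3.70), and C1s1 at 1.91 CP10k (1.74 to 2.09) against 0.757, a ratio of 2.53 (2.24 to 2.85). Cfb had the highest ratio, 4.29 (3.79 to 4.85), with 2.33 CP10k (2.14 to 2.53) against 0.543. C3 stood at 14.2 CP10k (13.8 to 14.7) against 5.74, a ratio of 2.48 (2.37 to 2.59), and C4b at 1.97 (1.77 to 2.20) fell just under 2-fold. Their inhibitor went the other way: Serping1 was at 2.28 CP10k (2.10 to 2.48) against 3.67, a ratio of 0.622 (0.568 to 0.681). Hc had a ratio of 0.773 (0.636 to 0.934). Cfd had no count among 2457043 in the metastases against 102 in the far lung, which puts it at least 9.61-fold lower when 3 counts are allowed for the 0 and the far level is taken as it stands. The upper end of the ratio's 95% interval is 0.130, and 59 of the 102 counts lay in 1 spot. The members' median log2 ratio was 1.14, beside 0.30 for all genes.

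Inner spots of the metastases are those that touched no lung spot, also where they lay on the outline of the tissue. Of the 99 inner spots 96 belonged to metastasis 1, and of the 52 edge spots 27. The contrast of inner and edge spots is thus mixed with that of the 2 metastases. Within the metastases the spots that touched lung and those that did not were unlike for Hc. It was at 0.310 CP10k (0.235 to 0.4) in the 99 inner spots and 1.29 CP10k (1.01 to 1.61) in the 52 edge spots. The AT2 list was lower in inner spots too, at 44.5 CP10k against 133 CP10k at the edge. Cfb was at 1.3 CP10k (1.03 to 1.63) in edge spots and 2.65 CP10k (2.42 to 2.89) in inner spots. C3 was at 11.5 CP10k (10.7 to 12.4) in edge spots and 15.1 CP10k (14.5 to 15.6) in inner spots. The inner spots of metastasis 1 included 21 of the 10% of spots richest in mesothelium, and without mesothelium spots the inner and edge levels were 1.38 and 1.07 CP10k for Cfb and 8.17 and 11 CP10k for C3, so the order turned for C3.

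At the margin, C3 and Cfb were at least 2-fold higher than in the far lung (5.38% of genes), and Cfd was lower (1.66% of genes) with no count. C3 was at 12.9 CP10k (12.3 to 13.5) against 5.74, a ratio of 2.24 (2.12 to 2.37), and Cfb at 1.35 CP10k (1.16 to 1.56) against 0.543, a ratio of 2.49 (2.08 to 2.96). C1ra and C1s1 lay just under the threshold at 2.00 (1.63 to 2.42) and 1.98 (1.67 to 2.32), and C4b was at 1.80 (1.56 to 2.07). Hc was higher by 1.62 (1.34 to 1.94), with 1.13 CP10k (0.959 to 1.33) against 0.700. Serping1 had a ratio of 1.02 (0.929 to 1.13). The median log2 ratio of the members was 0.92, beside 0.26 for all genes.

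**Figure D3:**
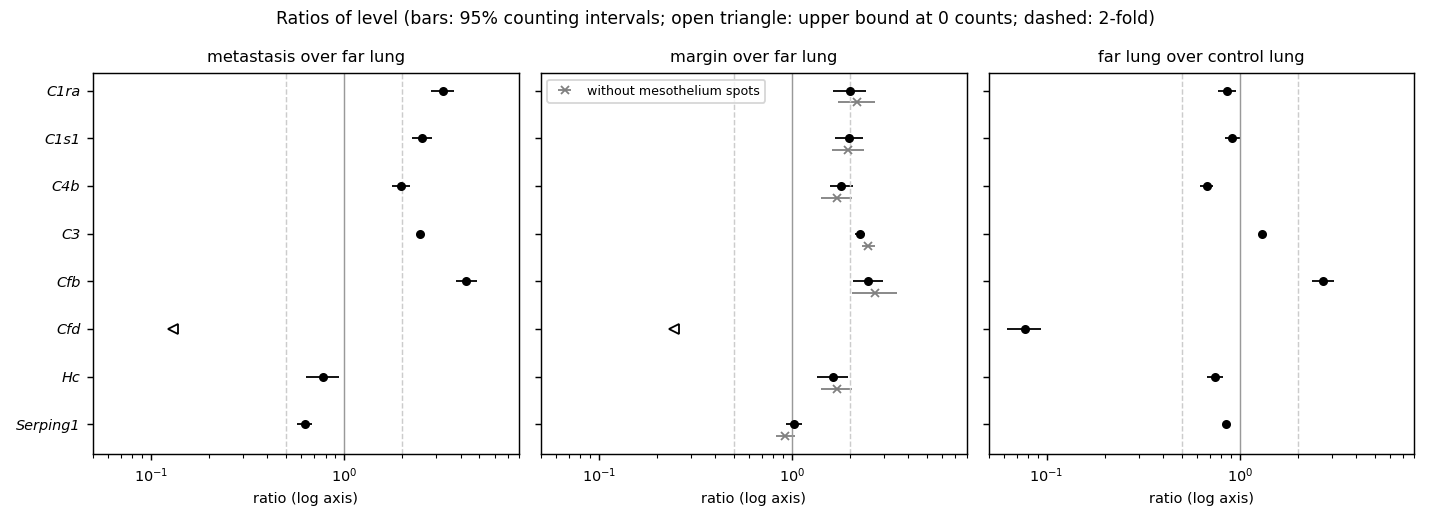
Ratio of levels (log axis) for the 8 genes in the metastases over the far lung, the margin over the far lung and the far lung over the control lung, with 95% counting intervals. Open triangles are upper bounds for Cfd, which had no count in the metastases or the margin, dashed lines mark 2-fold, and grey crosses give the margin without mesothelium spots. C1ra, C1s1, C4b, C3 and Cfb lie above 1 in the first and second panels, and in the third Cfb is past 2-fold higher and Cfd past 2-fold lower.

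The margin was not the same around the 2 metastases. Metastasis 1 lay at the pleural surface, and 8 of its 38 margin spots were among the 10% richest in mesothelium, while none of the 57 around metastasis 2 was. Set against the same far lung, the margin of metastasis 1 had ratios of 4.75 for C3 and 5.58 for Cfb, and that of metastasis 2, which held no mesothelium spot, had ratios of 0.76 and 0.65 against a far lung that held 66. With the mesothelium spots left out of both sides, a choice made after seeing the data, the pooled margin had ratios of 2.48 (2.29 to 2.69) for C3, 2.67 (2.03 to 3.48) for Cfb, 2.16 (1.73 to 2.68) for C1ra and 1.70 (1.41 to 2.05) for Hc. Then 3 members were at least 2-fold higher (5.69% of genes). On that footing the margin of metastasis 2 alone was above the far lung in C3, at 4.36 CP10k (3.92 to 4.83) against 2.81, a ratio of 1.55 (1.38 to 1.73). Its Cfb ratio of 1.45 (0.945 to 2.14) did not differ from 1 by counting error. At metastasis 1 the ratios were 4.44 (4.02 to 4.90) for C3 and 5.24 (3.76 to 7.18) for Cfb. Hc was higher at both, with 1.97 (1.46 to 2.60) and 1.58 (1.25 to 1.97), while Serping1 was at 1.46 (1.24 to 1.70) and 0.670 (0.569 to 0.783).

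**Figure D4:**
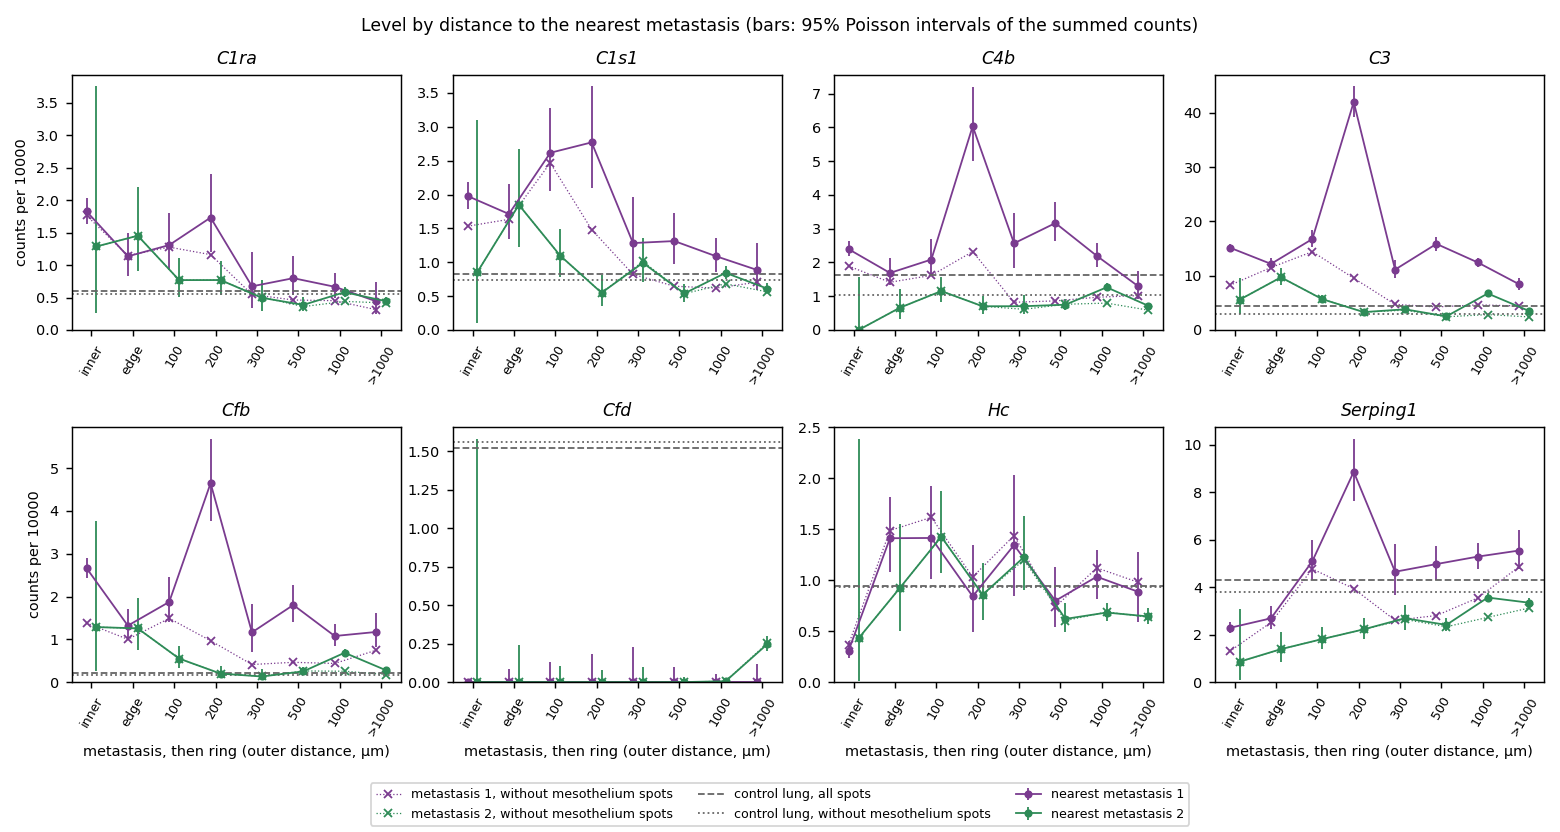
Level in CP10k of the 8 genes in the inner and edge spots of the metastases and in rings of lung by distance to the nearest metastasis (outer distance in µm), for spots nearest metastasis 1 (purple) and metastasis 2 (green), with 95% Poisson intervals. Crosses are the same spots without the 10% richest in mesothelium and the grey lines are the control lung with all spots (dashed) and without mesothelium spots (dotted). C3, C4b and Cfb have a peak in the ring to 200 µm of metastasis 1 that is lower without mesothelium spots, and Hc is low in inner spots of metastasis 1.

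Read ring by ring without mesothelium spots, C3 was lower 300 to 500 µm out than next to either metastasis. Around metastasis 1 it was at 14.4 CP10k (12.9 to 16.0) within 100 µm, 9.54 CP10k (8.07 to 11.2) to 200 µm, 4.72 CP10k to 300 µm and 4.25 CP10k (3.57 to 5.02) to 500 µm. Around metastasis 2 it was at 5.68 CP10k (4.93 to 6.51), 3.30 CP10k (2.79 to 3.87), 3.65 CP10k and 2.44 CP10k (2.17 to 2.74) over the same rings. The control lung without its own mesothelium spots was at 3.03 CP10k (2.95 to 3.11). Both series started above that level. In the ring to 500 µm metastasis 1 was still above it, and metastasis 2 was below it. With all spots, the ring to 200 µm of metastasis 1 stood at 42.0 CP10k (39.2 to 44.9) over 17 spots, 4 of them mesothelium spots, with a median spot of 10.0 CP10k.

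Cfb followed the same course at lower counts. Without mesothelium spots it went from 1.49 CP10k (1.04 to 2.07) within 100 µm of metastasis 1 to 0.462 CP10k (0.258 to 0.761) in the ring to 500 µm. Around metastasis 2 it went from 0.549 CP10k (0.335 to 0.847) to 0.260 CP10k (0.176 to 0.369), and these intervals overlapped. Over the same 2 rings C1ra went from 1.28 to 0.462 CP10k around metastasis 1 and from 0.768 to 0.360 CP10k around metastasis 2, and C1s1 from 2.47 to 0.646 CP10k and from 1.10 to 0.536 CP10k.

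The levels of Hc and Serping1 by ring are given over all spots, mesothelium spots included. Hc was highest next to the metastases. In the ring within 100 µm it was at 1.41 CP10k (1.01 to 1.93) around metastasis 1 and 1.43 CP10k (1.07 to 1.87) around metastasis 2, and in the ring to 500 µm at 0.798 CP10k (0.542 to 1.13) and 0.620 CP10k (0.489 to 0.775). The decline was not steady, since the ring to 200 µm was at 0.852 CP10k and that to 300 µm at 1.26 CP10k with both metastases pooled. The AT2 list in the same pooled rings was at 211, 202, 213 and 177 CP10k. Serping1 was lowest next to metastasis 2, going from 1.39 CP10k (0.858 to 2.12) at its edge and 1.81 CP10k (1.40 to 2.30) within 100 µm to 3.34 CP10k (3.17 to 3.52) over 1000 µm away. Around metastasis 1 it was at 2.68 CP10k at the edge and 5.09 CP10k within 100 µm, where 4 of the 21 spots were among the 10% richest in mesothelium. Around metastasis 2 no spot within 100 µm was. The airway list was far higher within 100 µm of metastasis 2 than of metastasis 1 (levels below). Airway spots of the far lung held Serping1 at 1.80 CP10k (1.54 to 2.09). The part of airway tissue in these levels was not tested.

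Other lists moved over the same rings. The interferon response list went from 24.8 CP10k within 100 µm to 7.06 CP10k in the ring to 500 µm, and the macrophage list from 22.6 to 10.5 CP10k, both metastases pooled. The airway list was at 46.7 CP10k within 100 µm of metastasis 1 and 2705 CP10k within 100 µm of metastasis 2. With the far-lung spots ranked by the interferon score and cut into 3 groups of like size, C3 was at 1.93 CP10k (1.79 to 2.08) in the lowest group, 3.20 CP10k (2.98 to 3.43) in the middle and 13.6 CP10k (13.1 to 14.0) in the highest, and Cfb at 0.131, 0.311 and 1.35 CP10k. The mesothelium list went the same way, from 0.312 to 2.5 CP10k, and the airway list the other way, from 4041 to 710 CP10k. The part of these lists in the results was not tested.

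The other complement genes of a list fixed by role gave the setting. Of its 48 genes 47 were in the table and 23 had at least 50 counts over the metastases and the far lung. Of these, 13 were at least 2-fold higher in the metastases and 6 at least 2-fold lower, beside 22.3% and 16.8% of all genes. Of the higher ones, 6 start the cascade and 5 are receptors. The C1q chains, which bind antibody and start the classical pathway, were at 3.34 (C1qa), 5.03 (C1qb) and 4.82 (C1qc), the ficolin Fcna at 12.4, C1rb at 3.83 and C1s2 at 3.65. Properdin (Cfp), which steadies the alternative convertase, was at 4.22 and clusterin (Clu) at 2.35. The anaphylatoxin receptors C3ar1 and C5ar1 were at 5.95 and 2.02, and the complement receptor integrins Itgam, Itgax and Itgb2 at 4.17, 3.43 and 5.38.

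The 6 lower ones are a share not far from that of all genes. The membrane protectors Cd55 (0.301), Cd59a (0.473) and Susd4 (0.154) were lower in the metastases, as were the fluid regulators Vtn (no count against 158) and Cpn1 (0.179) and the collectin Colec12 (0.460). At the margin 22 genes were measured and 6 were at least 2-fold higher (5.38% of all genes), C1qa (2.04), C1qb (2.78), C1qc (2.53), C1rb (2.58), Cfp (2.47) and Itgax (3.26). Susd4 was at 0.483 (0.152 to 1.18) with 5 counts, an interval that includes 1. In the far lung against the control lung 29 were measured and 5 were at least 2-fold higher (0.926% of all genes), C1qa (2.03), C1s2 (3.29), C5ar1 (2.56), C5ar2 (2.81) and Itgam (2.84). Cr2 was at least 2-fold lower (0.309). C2, which pairs with C4 in the classical convertase, shared the mesothelial pattern of the members, with ratios of 12.2 (10.3 to 14.3) in control mesothelium spots and 28.5 in those of the far lung. Cd55 was the 1 listed gene at least 2-fold higher in airway spots, at 3.28 in the control and 2.95 in the far lung. The terminal genes beyond Hc were nearly silent: C8b and C9 had no count in either section, C7 had 8 and 5, and C6 alone was measured well, with 733 and 466 counts in the control and the metastatic section.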

How the data were processed

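Raw counts per gene and spot were used as deposited; per the labels the authors had made them with Space Ranger 1.3.1 against mm10. The tables held spots over tissue, and no spot was removed. Counts were summed over sets of spots and divided by the summed total (CP10k, per 10000), with exact Poisson intervals and Clopper-Pearson intervals of ratios. Spots are not replicates, and with 1 section a condition no test was made. Genes with at least 50 counts over both sides gave the background of 2-fold changes. Classes were the 5% of spots highest in mean z-score of a marker list. Metastases came from k-means (5 clusters, 2000 variable genes without complement genes, 20 components, seed 11), keeping groups of at least 5 touching spots. The genes named beside each member were the 3 with highest r. The members and lists were chosen with earlier results of these data known. Alternatives without mesothelium, adipocyte or detached spots, and with inner metastasis spots only, also by metastasis, were chosen after seeing the data. Ratios and their intervals were also computed on simulated Poisson counts. These hold no spread between spots or animals, so they bear on counting error only. The software was Python 3.11.15 with scikit-learn 1.9.0, scikit-image 0.26.0, scipy 1.17.1, matplotlib 3.10.9, pandas 2.3.3 and numpy 2.4.6. Coordinates are from GENCODE M21 (GRCm38) and promoters from RefSeq.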

Additional observations from a re-analysis of the deposited data

Results flagged for a closer look

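Cfb stood on opposite sides of the other spots in the airway classes of the 2 sections. Its ratio was 1.82 (1.38 to 2.37) in the control lung, with 67 counts in 94 airway spots, and 0.178 (0.0847 to 0.330) in the far lung of the metastatic section, with 10 counts in 35. The difference was not tested, since each section is 1 animal. In the far lung the other spots include the mesothelium spots with 257 of its 472 counts. Within the airway classes Cfb was at 0.340 CP10k in the control and 0.106 CP10k in the far lung. The 2 classes were also unlike in make-up. The largest group of touching spots held 79 of 94 in the control and 5 of 35 in the far lung. Scgb3a1 had 31368 counts in the control class and 260 in that of the far lung, and Bpifa1 had 3362 and 7. The part of this in the result was not tested.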

How the results depend on the processing

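No paired analysis was possible because each condition is 1 section. Of 824 member ratios under alternatives, 464 moved by less than their interval, 351 moved further and 9 turned direction. Only ratios at least 2-fold from 1 could be counted as turned. A smaller ratio that crossed 1 is among the others, such as C3 in the far lung against the control lung, which fell below 1 without mesothelium spots. Members at least 2-fold higher in control AT2 spots went from 1 to 0 with summed lists, without the most abundant gene families, as means over spots or thinned to 5000 counts. In control airway spots 1 became 2 (2.5% of spots, without abundant families, thinned) or 0 (summed list). In the far lung, AT2 became 1 (summed list) and airway 0 (2.5% or 10% of spots, 1 class only, summed list). The margin count of 2 became 4 (8 clusters, or 100 to 200 µm), 5 (far lung over 1000 µm, or metastasis 1 alone with or without mesothelium spots), 0 (metastasis 2 alone, likewise) and 1 (without airway spots or abundant families, as means, thinned). The metastasis count of 4 became 2 without abundant families, and the far lung against control count 0 over 1000 µm or without mesothelium spots. The direction turned for Cfd in control AT2 spots (1.80 without adipocyte spots) and control airway spots (0.107, summed list). It turned for Cfd in far-lung airway spots (0.647 with 2.5% of spots, 0.615 in 1 class only, 0 with the summed list) and fibroblast spots (0 without adipocyte spots), and for Cfb in far-lung fibroblast spots (0.460, 1 class only). At the margin of metastasis 2 alone C3 was at 0.759 and Cfb at 0.652, but at 1.55 and 1.45 with mesothelium spots left out of both sides. The causes were not tested. Depth limits Cfb in the control (410 counts) and Cfd in the metastatic section (102 counts).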
